A study of Equus caballus with 32 samples.

Results

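The genes described here are the 150 whose level differed most between horses at baseline in equine synovium, the membrane that lines a joint. They came from bulk RNA sequencing of 16 horses, each with 1 library at week 0 and 1 at week 10, in 2 randomized arms of 8 horses, Control and iPAAG. iPAAG is a 2.5% polyacrylamide hydrogel given into the joint. All 16 horses, the control arm included, had a bone and cartilage fragment made in a randomly chosen middle carpal joint and a sham arthroscopy of the opposite one. Baseline tissue, at week 0, was collected during that surgery ahead of the injury, and week 10 tissue right after death. Biopsies were digested with collagenase, so the libraries hold RNA of released cells. The study is described as placebo-controlled, but the labels name neither the placebo, nor when either was given, nor the joint of each biopsy, nor breed, age or sex.

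The level of a gene is log2(CPM + 0.5), where CPM is its count per 1000000 counts of the library. Of 19418 genes in the table, 11235 had a mean level of at least 2 over the 32 libraries, which left 11135 once the 100 most abundant were set aside. Of these, 8537 had a median change per horse from week 0 to week 10 of less than 0.5 in either direction. The 150 with the highest standard deviation (SD) of the level over the 16 week 0 libraries were taken. Members were thus selected on their measured week 0 spread, which is a description, as is their small median change. Their week 0 SD ranged from 0.93 to 2.98 with a median of 1.19, against a median of 0.29 over the 11235 genes. The last member inside the limit had an SD of 0.931 and the first gene outside it 0.930. Their mean level ranged from 2.00 to 9.26 with a median of 3.79, against 4.89 over the 11235 genes, on a scale not corrected for gene length. 73 of the 150 had no count in at least 1 library, and for 68 of them only in the week 10 library of control horse 2, of control horse 11 or of both.

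The table gives Ensembl horse gene IDs without symbols, and the reference table at hand holds none of these IDs, so no member could be given a name, a protein, a position or a sequence. Synovial markers could not be looked up for the same reason, and the tissue label was not checked. 4 IDs are printed below, and other members are called by their rank in week 0 SD, with rank 1 the most variable. As background, synovium holds lining and sublining fibroblasts, macrophages, vessels, fat and nerve, and a biopsy of it is small. In a bulk library, fewer cells of a type and less RNA per cell cannot be told apart. Genes that rise and fall together over samples are called a co-expression module. A difference between animals that returns in a second sample of the same animal is called persistent, and genes that differ in this way can be used to tell whether samples share a donor.

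Total counts ranged from 5428928 to 56476566 per library. Control horses 2 and 11 had week 10 libraries unlike the rest, with 12018 and 11373 genes detected against at least 15599 in the other 30. They held the lowest week 10 level of 109 of the 150 members. Many values at week 10 are therefore given with and without these 2 horses, and the rest with all horses only.

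The baseline differences were of 2 kinds. 85 members varied together in 3 modules of 47, 22 and 16 genes, and 65 belonged to no group of at least 10 genes, though some pairs of them were correlated. The score of a module, its mean deviation in a horse, had a Pearson's r between weeks of 0.18, 0.23 and -0.59 in modules 1, 2 and 3 over 16 horses (Spearman's rho 0.35, 0.36 and -0.63). Among the 65, a subset showed nearly the same level in the same horses 10 weeks later. The test of whether the 2 libraries of a horse deviated together, an edgeR quasi-likelihood F test of the horse terms over all 32 libraries, passed an adjusted p of 0.05 for 13 members, 8.67%, against a background of 0.174% of the 15498 genes tested. All 13 lay outside the modules and 0 of the 85 module members passed. Of the 17 genes with a mean level of at least 2 that passed, 13 were members. The week 0 values that chose the members also enter this test, and a gene with large lasting differences between horses also has a high week 0 SD. The contrast with the background is thus partly set by the rule. Without horses 2 and 11 it passed for 19 members, of which 12 were among the 13, with a background of 0.407%, and again 0 were in a module. DESeq2 called 45 members against a background of 5.17% and limma-voom 30 against 1.25%, each including all 13. In modules 1, 2 and 3, DESeq2 called 4, 12 and 0 genes and limma-voom 3, 1 and 0. The absence of calls thus held with edgeR only in modules 1 and 2, and with each tool in module 3.

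**Figure D1:**
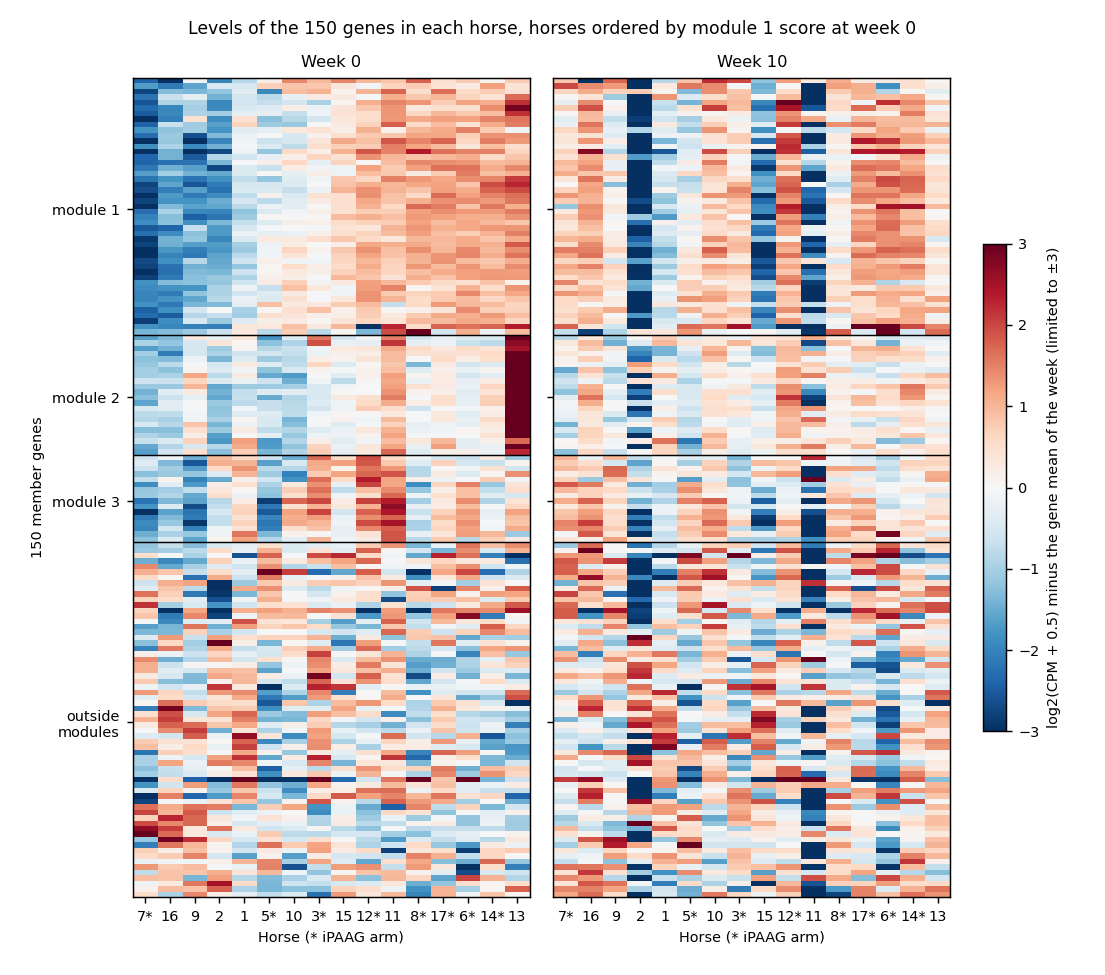
Heat map of the 150 members (rows, by module) in 16 horses (columns, iPAAG arm with an asterisk) at week 0 and week 10, as log2(CPM + 0.5) minus the mean of the gene in that week. The ordered gradient of module 1 at week 0 is not seen in the same horse order at week 10, module 2 is highest in horse 13 at week 0, and horses 2 and 11 hold the lowest week 10 level of 109 members.

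Persistence was also measured per gene as the correlation of the week 0 and week 10 levels over the 16 horses. The rule used the pairing of the 2 weeks only through the median change. Pearson's r had a median of 0.16 over the 150 members and 0.06 over the 11235 genes. 25 members had an r over 0.5, against a background of 4.49%, and 14 had an r over 0.8, all outside modules, against 0.231% of the 11235 genes. Without horses 2 and 11 the medians were 0.15 and 0.00, and 33 members lay over 0.5 against a background of 5.37%. The median over the 150 was 0.06 without horse 2 alone and 0.25 without horse 11 alone. By place, the median r was 0.33 for the 65 members outside modules, 0.16 in module 1, 0.21 in module 2 and -0.28 in module 3. An r over 0.5 was found for 22 of the 65, 2 of 47, 1 of 22 and 0 of 16. In a permutation test with 100000 permutations of the horses, adjusted over the 11235 genes, 8 members passed 0.05 with a positive r, against a background of 0.0979%. Of the 14 members with an r over 0.8, 13 are those past the horse-term threshold, and the other is that of rank 48 (r = 0.93, edgeR adjusted p of the horse terms 0.201).

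**Figure D2:**
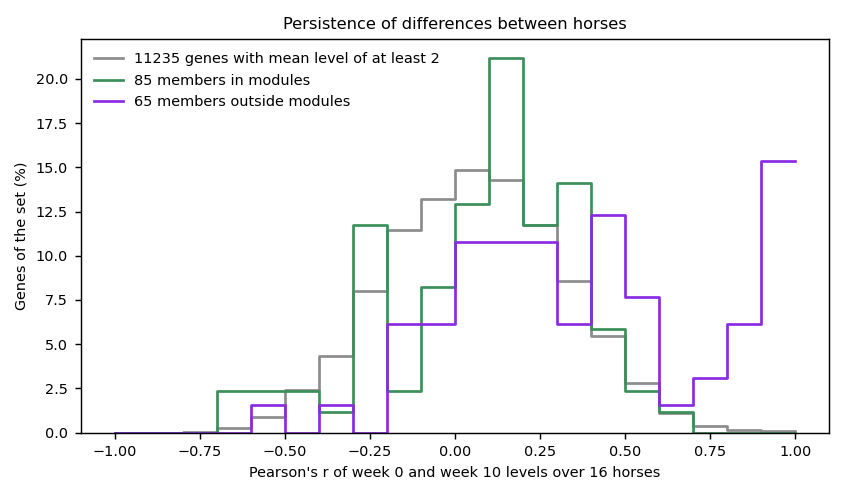
Share of genes (percent, y axis) by Pearson's r between week 0 and week 10 levels over 16 horses (x axis, steps of 0.1), for 11235 genes, 85 members in modules and 65 members outside them. Members outside modules have a separate peak above 0.8, where no module member and 0.231% of the 11235 genes lie.

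ENSECAG00000003925, of rank 2, had the widest split. At week 0 its lowest, median and highest levels were 6.20, 258 and 698 CPM in control horses and 5.62, 297 and 356 CPM in iPAAG horses. At week 10 they were 6.54, 152 and 729 CPM in control horses and 5.68, 389 and 621 CPM in iPAAG horses. Control horses 2 and 16 and iPAAG horses 8 and 12 were low at both weeks. They stood at 5.62 to 7.20 CPM at week 0 and 5.68 to 18.4 CPM at week 10, and the other 12 horses at 190 to 698 CPM and 91.8 to 729 CPM. The 2 sets did not overlap at either week, and no horse changed side. Low values were not zeros, since the 4 horses had 226 to 325 counts at week 0. The gap between the sets at week 0 was 4.63 on the log2 scale. The horse terms had an edgeR adjusted p of 0.000179. Pearson's r was 0.94 (permutation p = 8e-05, adjusted 0.0562) and Spearman's rho 0.69 (permutation p = 0.00398, adjusted 0.486) over 16 horses. Without the 2 horses farthest from the week 0 median r was 0.93.

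ENSECAG00000034339, of rank 14, had the smallest p of the horse terms among the members (edgeR adjusted p = 6.82e-05). At week 0 its lowest, median and highest levels were 6.47, 57.0 and 129 CPM in control horses and 10.5, 65.2 and 315 CPM in iPAAG horses. At week 10 they were 6.82, 55.8 and 189 CPM in control horses and 13.4, 51.7 and 304 CPM in iPAAG horses. This gene was graded over horses, and the order was largely kept: iPAAG horse 6 was highest at both weeks, with 315 and 304 CPM, and control horse 2 lowest. Its r was 0.93 (permutation p = 1e-05, the smallest that 100000 permutations can give, adjusted 0.016) and its rho 0.90 (permutation p = 1e-05, adjusted 0.0281). Without the 2 farthest horses r was 0.88. The 5 horses that were low at week 0 were horses 2, 8, 12, 14 and 16, at 6.47 to 20.9 CPM, and 4 of them are the low horses of ENSECAG00000003925. The levels of these 2 genes had an r of 0.72 over the 16 horses at week 0 and 0.60 at week 10.

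**Figure D3:**
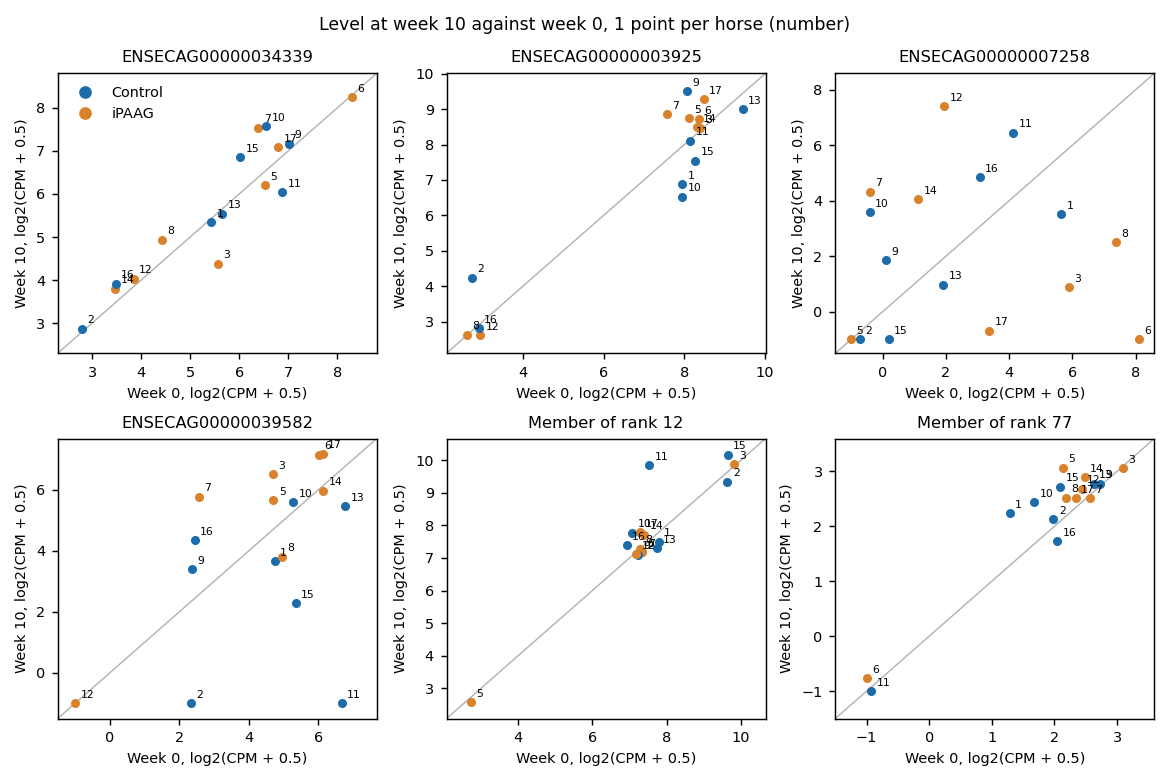
Level at week 10 (y axis) against week 0 (x axis), both as log2(CPM + 0.5), for the 4 printed IDs and the members of ranks 12 and 77, with 1 numbered point per horse, control in blue and iPAAG in orange, and the line of equal levels in grey. Horses 2, 8, 12 and 16 are low at both weeks for ENSECAG00000003925, and points of ENSECAG00000007258 show no such order.

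Other members split the horses in the same all-or-little way, with other horses on the low side. Rank 77 was nearly without counts in iPAAG horse 6 and control horse 11 at both weeks. Horse 6 had 0 counts at week 0, which allows up to 0.0649 CPM at 3 counts, and 4 counts at week 10. Horse 11 had 1 count at week 0 and 0 at week 10, which allows up to 0.105 CPM. The other 14 horses stood at 1.93 to 8.05 CPM at week 0 and 2.81 to 7.89 CPM at week 10. The pair of horses and the other 14 did not overlap at either week (r = 0.95, edgeR adjusted p of the horse terms 0.00646). The week 10 library of horse 11, which stood apart, had 0 counts for 45 of the members. Its 0 for rank 77 thus says little, and a kept low side is shown by horse 6 only. Without the 2 farthest horses r was 0.58.

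Rank 91 was low in control horses 2 and 11 at both weeks, at 1.84 to 1.95 CPM and 2.03 to 2.66 CPM, against 10.8 to 31.5 CPM and 8.55 to 24.4 CPM in the other 14 (edgeR adjusted p of the horse terms 0.0234). These are the horses whose week 10 libraries stood apart and held the lowest week 10 level of 109 of the members. Their low week 10 levels thus say little about a kept side, although both horses were also low at week 0. Without them its r of 0.92 was 0.64. Rank 27 had 0 counts in control horse 13 at both weeks and 22 and 9 counts in iPAAG horse 5. The other 14 horses stood at 2.57 to 18.0 CPM at week 0 and 0.946 to 15.0 CPM at week 10 (r = 0.93, edgeR adjusted p 0.000562). These 3 members were each low in another pair of horses.

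Rank 70 parted the horses more evenly. At week 0, 9 horses stood at 1.59 to 5.57 CPM and 7 at 13.3 to 26.6 CPM. At week 10 the same 9 stood at 2.25 to 6.11 CPM and the same 7 at 8.66 to 14.9 CPM. The sets did not overlap at either week (r = 0.94, edgeR adjusted p 0.0186). The low side held horses 1, 5, 6, 7, 8, 9, 11, 15 and 17, which come from both arms.

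Rank 12 had 3 levels. iPAAG horse 5 stood at 6.15 CPM at week 0 and 5.45 CPM at week 10. Horses 2, 3 and 15 stood at 797 to 897 CPM and 645 to 1148 CPM, and 11 other horses at 121 to 220 CPM and 137 to 221 CPM. Control horse 11 was the exception, with 184 CPM at week 0 and 920 CPM in its week 10 library, which was among the high values. The adjusted p of the horse terms was 0.000593 in edgeR, and r was 0.93 with and 0.98 without horses 2 and 11. For rank 91 the same library of horse 11 stayed near the level of its week 0 library. For rank 77 it had 0 counts, as it did for 45 of the members, so that value says little.

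Some of the 13 were graded rather than split. Rank 97 ranged from 102 CPM in iPAAG horse 5 to 1665 CPM in iPAAG horse 17 at week 0. At week 10 it was again lowest in horse 5, at 96.4 CPM, and iPAAG horses 12 and 17 were the highest, at 2201 and 2046 CPM. Its r was 0.89 and the edgeR adjusted p of its horse terms 0.00106. Rank 30 instead set control horse 2 apart from the other 15 at week 0. That horse had 1.07 CPM at week 0 and 0 counts at week 10, which allows up to 0.553 CPM in that shallow library. The same library had 0 counts for 52 of the members, so its 0 for rank 30 says little. The other 15 horses stood at 14.2 to 78.8 CPM and 9.39 to 121 CPM. Its r of 0.96 was the highest of the 150, and without the 2 farthest horses it was 0.89. Rank 55 was highest in horses 2, 12 and 17, at 10.8 to 37.8 CPM at week 0 and 18.8 to 25.6 CPM at week 10, above all other horses at both weeks.

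The 13 persistent members did not follow a common order of horses. Among their 78 pairs, the median r at week 0 was -0.02 and the range -0.68 to 0.78. 7 pairs had an r over 0.5 at week 0, of which 3 also did at week 10. Another 3 had an r under -0.5 at week 0. Over all pairs of members outside modules, the 95th percentile of r at week 0 was 0.53. The closest pair was of ranks 97 and 144, with 0.78 at week 0 and 0.81 at week 10. The most opposed pair was of ranks 14 and 70, with -0.68 and -0.74.

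Over all 150 members, 37 had a gap of at least 1 on the log2 scale at week 0 with at least 2 horses on each side, against a background of 1.08%. The rule favours such genes, so nothing is read from that share. In 6 of the 150, 4.0%, the horses below such a gap at week 0 also lay below all others at week 10, against 0.0801% of the 11235 genes. Among genes with such a gap these were 6 of 37 members and 9 of 121 genes, so most of the contrast with all genes lies in the gap itself. These were ranks 2, 27, 70, 75, 77 and 91. Rank 75 was the one of these that missed the horse-term threshold (edgeR adjusted p = 1.00). It was high in control horses 9 and 16, at 24.2 to 39.4 CPM at week 0 and 15.5 to 25.7 CPM at week 10. The low side of rank 91 held only horses 2 and 11, whose week 10 libraries stood apart.

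High spread at baseline did not by itself bring persistence. ENSECAG00000007258, of rank 1, had lowest, median and highest levels of 0.110, 1.94 and 49.7 CPM in control horses and 0, 6.56 and 273 CPM in iPAAG horses at week 0. At week 10 they were 0, 7.04 and 87.4 CPM in control horses and 0, 3.24 and 170 CPM in iPAAG horses. The highest horse at week 0, iPAAG horse 6 with 273 CPM, had 0 counts at week 10, and the highest at week 10, iPAAG horse 12 with 170 CPM, had 3.37 CPM at week 0. Its r was 0.03 (permutation p = 0.908, adjusted 0.998) and its rho 0.11 (permutation p = 0.68, adjusted 1), with an r of 0.26 without the 2 farthest horses. Its horse terms had an edgeR adjusted p of 1.00.

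ENSECAG00000039582, of rank 3, belonged to module 1. At week 0 its lowest, median and highest levels were 4.55, 32.2 and 108 CPM in control horses and 0, 28.0 and 69.7 CPM in iPAAG horses. At week 10 they were 0, 11.1 and 47.7 CPM in control horses and 0, 58.2 and 145 CPM in iPAAG horses. iPAAG horse 12 had 0 counts at both weeks, while the score of module 1 in that horse was above the mean at both weeks, at 0.73 and 1.15. Its r was 0.47 (permutation p = 0.0678, adjusted 0.871) and its rho 0.35 (permutation p = 0.191, adjusted 0.954), and r was -0.02 without the 2 farthest horses and 0.72 without horses 2 and 11. Its horse terms did not pass in edgeR (adjusted p = 0.974), and did in DESeq2 (0.0201) and limma-voom (0.00107), over a range from 0.00107 to 1.00 in the settings run.

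Modules were groups of members joined by their correlation over the 16 week 0 libraries, so their tightness at week 0 is a description. The same pairs in the week 10 libraries had no part in forming them. The score of a module in a horse is the mean over its genes of the level minus the mean of that gene in the week, on the log2 scale.

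Module 1 held 47 genes with a median pairwise r of 0.88 at week 0 and 0.78 at week 10, or 0.74 at week 10 without horses 2 and 11. Its genes thus still varied together at week 10, while part of the horses changed place. At week 0 its score was lowest in iPAAG horse 7, at -2.43, followed by control horses 16, 9 and 2 at -1.69, -1.52 and -1.52, and highest in control horse 13, at 1.27. 34 of the 47 genes had their lowest week 0 level in horse 7. At week 10 horses 7, 9 and 16 stood at 0.60, 0.09 and 0.91, and the lowest were control horses 2, 11 and 15 at -3.49, -2.44 and -1.84. Of the 4 lowest horses at week 0, horse 2 was also among the 4 lowest at week 10. At the high end more stayed: iPAAG horses 6, 14 and 17 stood at 1.06, 1.07 and 1.04 at week 0 and at 1.21, 1.10 and 1.10 at week 10, while horse 13 stood at 0.40. The score at week 0 had an r of 0.18 and a rho of 0.35 with that at week 10 over 16 horses, 0.44 without horses 7 and 16, the farthest at week 0, and 0.11 without horses 2 and 11.

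The next most variable member of module 1, of rank 4, shows this in levels. It stood at 9.22 CPM in iPAAG horse 7 and 36.9 CPM in control horse 16 at week 0, and at 96.4 and 394 CPM in them at week 10. In control horse 15 it moved from 205 to 4.69 CPM and in control horse 11 from 277 to 10.4 CPM. In iPAAG horse 17 it was 315 and 313 CPM. Levels in single horses thus moved in either direction while the median change over horses was small, as the rule required.

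Module 2 held 22 genes, and 22 of 22 had their highest week 0 level in control horse 13. The score of that horse was 3.36, that is 10.3-fold above the geometric mean of the horses, and the next was control horse 11 at 1.12. At week 10 horse 13 stood at 0.15, and the highest was iPAAG horse 12 at 0.99. The member of rank 31, the most variable of the module, stood at 240 CPM in horse 13 and 4.41 to 49.2 CPM in the other 15 horses at week 0. At week 10 it was 13.6 CPM in horse 13 and 7.93 to 38.8 CPM in the others. Median pairwise r was 0.88 at week 0 and 0.72 without horse 13, so the genes also varied together in the other 15 horses. At week 10 it was 0.31, and 0.53 without horses 2 and 11. The score had an r of 0.23 and a rho of 0.36 between weeks, 0.44 without horses 11 and 13 and 0.14 without horses 2 and 11.

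Module 3 held 16 genes. Median pairwise r was 0.70 at week 0, 0.50 at week 10 and 0.42 without horses 2 and 11. At week 0 the score was highest in control horse 11, at 1.71, and in iPAAG horses 12 and 3, at 1.45 and 1.25. It was lowest in control horse 9, at -1.82, and iPAAG horses 5 and 7, at -1.49 and -1.47. At week 10 horse 11 was the lowest, at -2.11, and horses 12 and 3 stood at 0.22 and -0.49. Horses 9, 5 and 7 stood at 0.67, 0.45 and 0.82. Of these 6 horses 5 moved to the other side of the mean and horse 12 stayed above it. The r between weeks was -0.59 and rho -0.63 over 16 horses, -0.40 without horses 9 and 11 and -0.58 without horses 2 and 11. The r of single genes was below 0 for 15 of 16. The median r of the 16 genes was -0.28, against 0.06 over the 11235 genes. These 16 genes vary together, so they are not independent observations. The member of rank 8, the most variable of the module, stood at 8.90 and 412 CPM in horses 7 and 11 at week 0 and at 179 and 15.7 CPM at week 10.

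**Figure D4:**
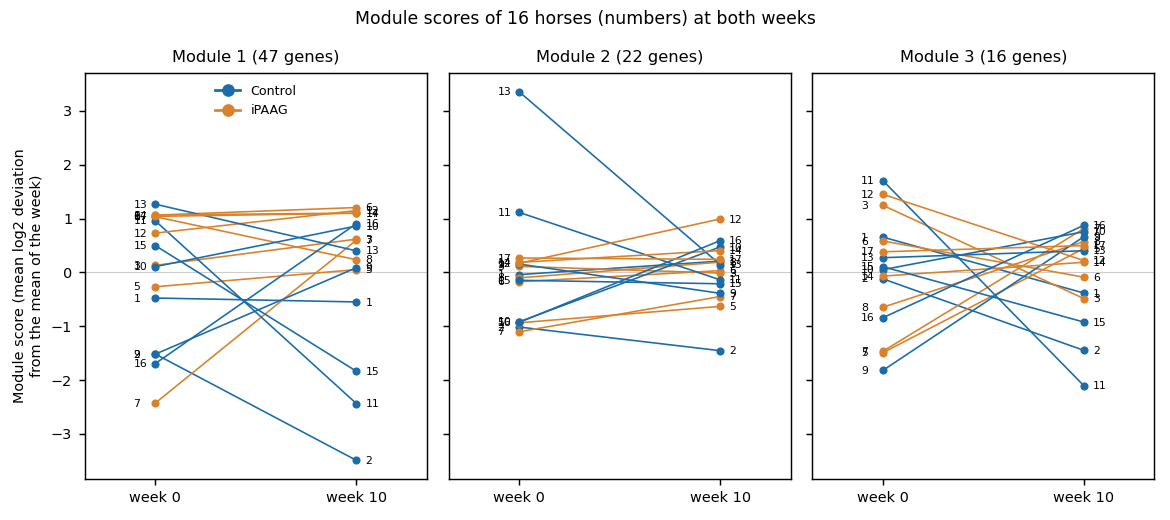
Scores of modules 1, 2 and 3 (y axis, mean log2 deviation from the mean of the week) of each horse at week 0 and week 10, joined by a line, control in blue and iPAAG in orange. Lines cross in each module, horse 13 falls from 3.36 to 0.15 in module 2, and horses 2, 11 and 15 are the lowest of module 1 at week 10.

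Scores moved with the total counts of the library. Over the 16 week 0 libraries the r with log2 total counts was 0.69 for module 1 (rho 0.50), 0.38 for module 2 (rho 0.35) and 0.64 for module 3 (rho 0.60). Without the 2 libraries of most unusual total these r were 0.53, 0.58 and 0.33. At week 10 they were 0.85 (rho 0.78), 0.75 (rho 0.59) and 0.67 (rho 0.68), and without horses 2 and 11 0.77, 0.40 and 0.72. The week 0 libraries of iPAAG horse 7 and control horse 9, among the lowest for modules 1 and 3, had 32117791 and 23088448 counts, and that of horse 13 had 56476566. Levels are already scaled by total counts. The part of library yield in the module differences was not tested.

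The modules were not closed groups. At week 0, 596 of 11085 genes outside the 150 had an r over 0.8 with the score of module 1, 56 with module 2 and 116 with module 3. Another 178, 2 and 56 had an r below -0.8. At week 10 without horses 2 and 11, an r over 0.5 with the week 10 score was found for 87.9% of the 596 genes, 48.2% of the 56 and 37.1% of the 116. Among all 11085 genes these shares were 28.0%, 8.71% and 21.5%. Between modules, the median r of pairs at week 0 was 0.49 for modules 1 and 2, 0.49 for 1 and 3 and 0.32 for 2 and 3, so the 3 modules shared part of their variation. With a looser joining height of 0.6 all 85 genes fell into 1 group of 89. With rank correlation modules 1 and 2 joined in a group of 69, and without horses 2 and 11, 45 genes of module 1 and 10 of module 3 joined in one of 59.

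**Figure D5:**
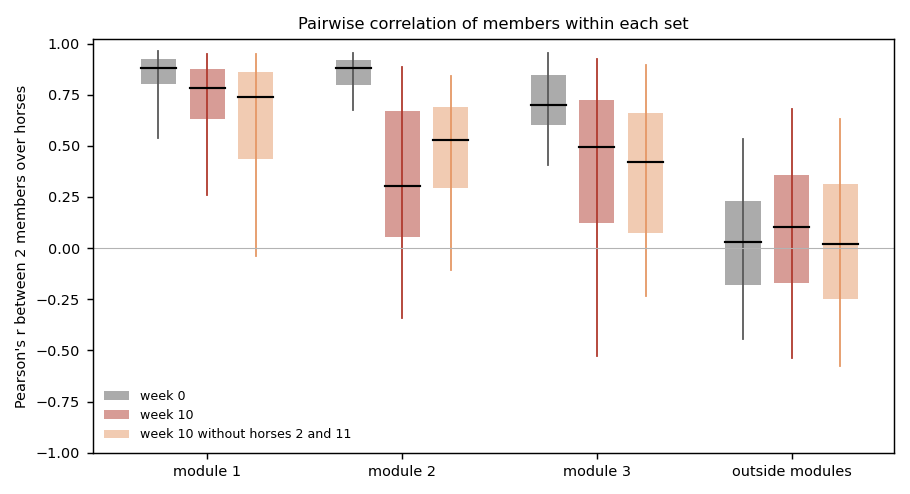
Pearson's r between 2 members of the same set over the horses of a week (y axis), for each module and for the members outside modules; boxes span the 25th to 75th percentile of pairs, lines the 5th to 95th, and black bars the median. Medians fall from week 0 to week 10 in each module, from 0.88 to 0.78 in module 1, and are 0.03 and 0.10 outside modules.

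Outside modules, the median pairwise r was 0.03 at week 0 and 0.10 at week 10, close to the 0.04 and 0.11 over all pairs of the 11235 genes. The modules had taken out the larger correlated groups, so the week 0 median is a description. From the 5th to the 95th percentile, r of pairs ran from -0.44 to 0.53 at week 0 and from -0.53 to 0.68 at week 10. As a check of the horse codes, each library was set against the mean of its arm and week, and the week 0 and week 10 libraries were correlated over the 65 members outside modules. Libraries of the same code had a median r of 0.44, with a range of 0.19 to 0.74, above 0.1 in 16 of 16 horses. Libraries of different codes had a median of -0.04, with a range of -0.43 to 0.50, so some exceeded the median of the same code. For 12 of 16 week 0 libraries the best match among all 16 week 10 libraries was that of the same code, and the exceptions were horses 3, 7, 9 and 16. Over all 150 members the best match was the same code for 10 of 16, with r of the same code from -0.12 to 0.66. Over the 85 module members the best match was the same code for 3 of 16, and over the 11235 genes for 2 of 16.

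The spread itself was still high at week 10. The median SD of the members over the 16 week 10 libraries was 1.39, against 0.55 for all 11235 genes. Without horses 2 and 11 it was 0.96 against 0.37. 127 members had a week 10 SD at or above the lowest week 0 SD of a member, 84.7%, against a background of 22.7%, and without horses 2 and 11 this was 80 members, 53.3%, against 6.67%. By place and without these horses, the median SD was 1.16 outside modules, 0.96 in module 1, 0.62 in module 2 and 0.79 in module 3.

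No member differed between the arms by the adjusted p in edgeR. At week 10, 0 of 150 passed, against a background of 0.0%, with a smallest adjusted p of 0.339 among the members. At an unadjusted p under 0.05 there were 17, 11.3%, against a background of 10.6%. DESeq2 called 2 members at week 10, 1.33%, against a background of 0.696%. They were of ranks 110 and 148, with log2 values of -2.08 and -1.44 for iPAAG against control (adjusted p = 0.0353 and 0.0438). These 2 were named after their values were seen. For the difference of the changes over 10 weeks, 0 of 150 passed, against 0.0%, with 5 at an unadjusted p under 0.05, 3.33%, against 3.98%. DESeq2 called 0 members there, against 0.0516%, but gave no adjusted p for 137 of the 150. At week 0, 0 of 150 passed, against 0.0%, DESeq2 called 0 as well, against 0.00684%, and 17 lay in edgeR under an unadjusted 0.05, 11.3%, against 5.84%. Since week 0 spread chose the members, nothing is read from that share. 11 of these 17 were module 2 genes, which are high in control horse 13.

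In module 1, 47 of 47 genes had a higher fitted level in iPAAG than in control horses at week 10, with a median log2 difference of 0.95, and 46 of 47 with a median of 0.64 without horses 2 and 11. Over all genes tested, 49.6% were higher in iPAAG horses with a median of -0.00, and 48.0% with a median of -0.01 without these 2. None passed the adjusted p, and the 47 genes vary together, so they are not independent observations. Module 1 scores at week 10 ranged from -3.49 to 0.91 in control horses and 0.05 to 1.21 in iPAAG horses, which overlap. At week 0, 42 of the 47 were higher in iPAAG horses with a median of 0.56, against 50.9% and 0.01 over all genes tested. Week 0 spread chose the members, so nothing is read from that count. The median difference of the changes was 0.88 in module 1 and 0.12 over all genes, and 0.19 and -0.00 without horses 2 and 11. Among the split members past the horse-term threshold, the low horses came from both arms for ranks 2, 27, 70 and 77, and were both control horses for rank 91.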

How the data were processed

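The authors deposited 1 table of whole-number read counts per Ensembl horse gene for 32 libraries. They are whole and sum differently in each library. The build EquCab3.0 and the tools limma 3.62.2 and STAR 2.7.10b are named, without a role, by the submitters' processing notes. Which tool counted, on which annotation and strand, is not given in the sources used here. Near-identical copies, overlapping genes and antisense genes are therefore uncertain. Column names gave the horse and week of all 32 columns, and 0 were left over.

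The members, lists and tests were chosen with earlier results of these data known. Levels use column totals and a pseudocount of 0.5. Tests were run over the whole table with edgeR 4.0.16 (R 4.3.3), TMM factors, its filter by group and Benjamini-Hochberg adjustment, with a threshold of 0.05. The horse terms were 14 coefficients within arms beside 4 means of arm and week. The difference of changes kept the horse as a block, since each animal has both weeks. All 150 members passed the filter. Over the 11235 genes with a mean level of at least 2, deviations of the 2 libraries of a horse had a median r of 0.12, over 0.1 in 8 of 16 horses. Modules came from average linkage on 1 minus r, with a height of 0.5 and at least 10 genes. Permutation tests used 100000 two-sided permutations. Alternatives were DESeq2 1.42.0, limma-voom (limma 3.58.1), RLE factors, no filter, other scalings and left-out horses. The edgeR and permutation tests were tried on simulated data. Printed IDs are the 2 members with the smallest p of the horse terms and the 2 others with the highest week 0 SD. The planned lists of cell type markers need symbols and were not used. Limits for counts of 0 cover counting error only. The p-values between arms within a week are judged against the spread between horses. Those of the horse terms and of the difference of changes are judged against the spread left within horses over the 2 weeks. Permutation p-values come from shuffling which week 10 value belongs to which horse.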

Additional observations from a re-analysis of the deposited data

Results flagged for a closer look

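In 28 groups of 8 values (4 IDs and 3 module scores, by arm and week), the gap of the highest or lowest value to the others was compared with the range of the group. 2 groups had an unusually large gap, and chance gives about 1.4. The module 1 score of iPAAG horse 7 at week 0 was -2.43, against -0.27 to 1.07 in the other 7 iPAAG horses. The log2(CPM + 0.5) of ENSECAG00000039582 in iPAAG horse 12 at week 10 was -1, which is 0 counts, against 3.81 to 7.18 in the other 7, and the same horse had 0 counts of it at week 0.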

How the results depend on the processing

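The count of 13 members past the horse-term threshold was 45 with DESeq2 and 30 with limma-voom (5.17% and 1.25% of all genes, against 0.174%), and the cause was not tested. It ranged from 9 without horse 6 to 17 without horse 11 over the single-horse exclusions, with 0.135% and 0.32% of all genes. Between arms at week 10, the count of 0 members was 2 with DESeq2, which called 0.696% of all genes. The difference of changes stayed at 0 with the horse as a block and at 0 with no replicate block, and the block changed no call of a member. Of the 150 members, 141 stayed with TMM-scaled totals, 116 with a pseudocount of 2, 113 without horses 2 and 11, 107 with the median absolute deviation and 114 to 131 when each horse was left out, lowest without horse 13. The median r between weeks, 0.16, was 0.06 without horse 2 and 0.25 without horse 11, and the median r within modules at week 10, 0.73, was 0.53 with a height of 0.6 and 0.55 with rank correlation. Leaving out each horse for the horse terms and the median r, the modules without horse 13 and those with a pseudocount of 2 were chosen after seeing the data. Of 107 counts of 0 among the members, 97 lay in the week 10 libraries of horses 2 and 11, which have 5428928 and 28614860 counts, so total counts alone do not mark where a member is at 0.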
